A study of Oryza sativa with 239 samples.

Results

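A set of 252 rice genes was read in every leaf library of some cultivars and gave no read at all in others. They were found among 55986 gene identifiers by 1 rule. A gene was on in a cultivar when every library of that cultivar held at least 5 CPM (read counts relative to a library size scaled for composition). It was silent when every library held 0 reads, and between in all other cases. A member was on in 8 or more cultivars and silent in 8 or more others. The rule used the levels between cultivars, so those levels and the patterns made from them are given as a description, with no test.

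The study sequenced polyadenylated RNA from leaves of *Oryza sativa*, in strand-directional libraries, from 40 cultivars and lines in 239 libraries. Plants grew in pots in a growth chamber, and each cultivar had libraries from plants kept irrigated (control) and from plants that were drained (drought). Samples were taken on day 5 from the youngest fully expanded leaf together with the next older one. The labels call the drought moderate, whereas the treatment protocol speaks of a severe drought with later rewatering. Germinated seeds went into pots of their own, but nothing states that each library came from its own plant, so the tests below measure the spread between libraries. Control and drought libraries carry separate series of names, so a difference between these series cannot be told apart from drought. The 226 libraries used came from 39 cultivars with depths of 2.61 to 59.5 M (mega, assigned reads), and the median library had 15.2 M. Left out were WRC09, which has a paragraph of its own below, 4 libraries with under 1 M reads, and 3 libraries that stood midway between cultivars (WRC16 control replicate 3, WRC16 drought replicate 2 and WRC35 control replicate 3).

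Cultivated Asian rice falls into deeply separated subgroups, among them japonica (temperate and tropical), indica, and aus, a group of early, often drought-hardy rices of the Bengal region. The genomes of these subgroups differ in single bases and also in which genes they carry. Reads were aligned to IRGSP-1.0, the genome of the japonica cultivar Nipponbare, which is WRC01 in the World Rice Core collection. A gene absent from Nipponbare therefore cannot be seen here at all. In the other cultivars, 0 reads can mean a gene that is absent, a gene that is present but not transcribed in these leaves, or a sequence too different to be aligned, and read counts cannot tell these apart. In whole leaves, fewer cells of a type and less RNA per cell cannot be told apart either.

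The labels give cultivar names but no subgroup. Subgroups were taken from general knowledge of the collection: 9 japonica, 12 aus and 17 indica cultivars, with WRC04 not placed. KP is read as Kinandang Patong, a japonica upland rice, and Dro1-NIL as a line near-isogenic to IR64 that carries a segment from it, so these 2 lines are not independent of each other. The placement was compared with levels of 9523 genes that were on in all 39 cultivars and therefore hold no member. In 35 of 38 placed cultivars the most highly correlated other cultivar was of the same subgroup. The exceptions were WRC32, an aus cultivar nearest to WRC04, and the indica cultivars WRC22 and WRC44, both nearest to WRC51, a japonica cultivar. By the median correlation with each subgroup, 34 of 38 were highest with their own. WRC22, WRC23, WRC44 and the aus cultivar WRC42 were highest with japonica, WRC42 at 0.0391 against -0.0243 with aus. The identifiers have the form of MSU rice gene models, and 0 of them matched the reference table at hand, so members are given by identifier, without a gene name or function, and the chromosome is the one written in the identifier.

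The members made up 0.45% of all identifiers and 1.78% of the 14132 genes that were on in 8 or more cultivars. Over 252 members and 39 cultivars there were 9828 combinations. In 3420 of them (34.8%) the member was on, in 3617 (36.8%) it was silent and in 2791 (28.4%) it was between. Most of the combinations called between lay close to silence: 74.8% had a mean under 0.5 CPM, 13.5% a mean from 0.5 to 5 CPM, and 11.8% a mean of 5 CPM or more, and the median was 0.0303 CPM. Where members were on, the rule itself kept every library at 5 CPM or more. The middle cultivar level was 17 CPM, with quartiles of 11.5 and 27 CPM and a range of 5.55 to 286 CPM. Averaged over the cultivars where it was on, a member had 6.6 to 201 CPM, and 20 members exceeded 50 CPM.

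**Figure D1:**
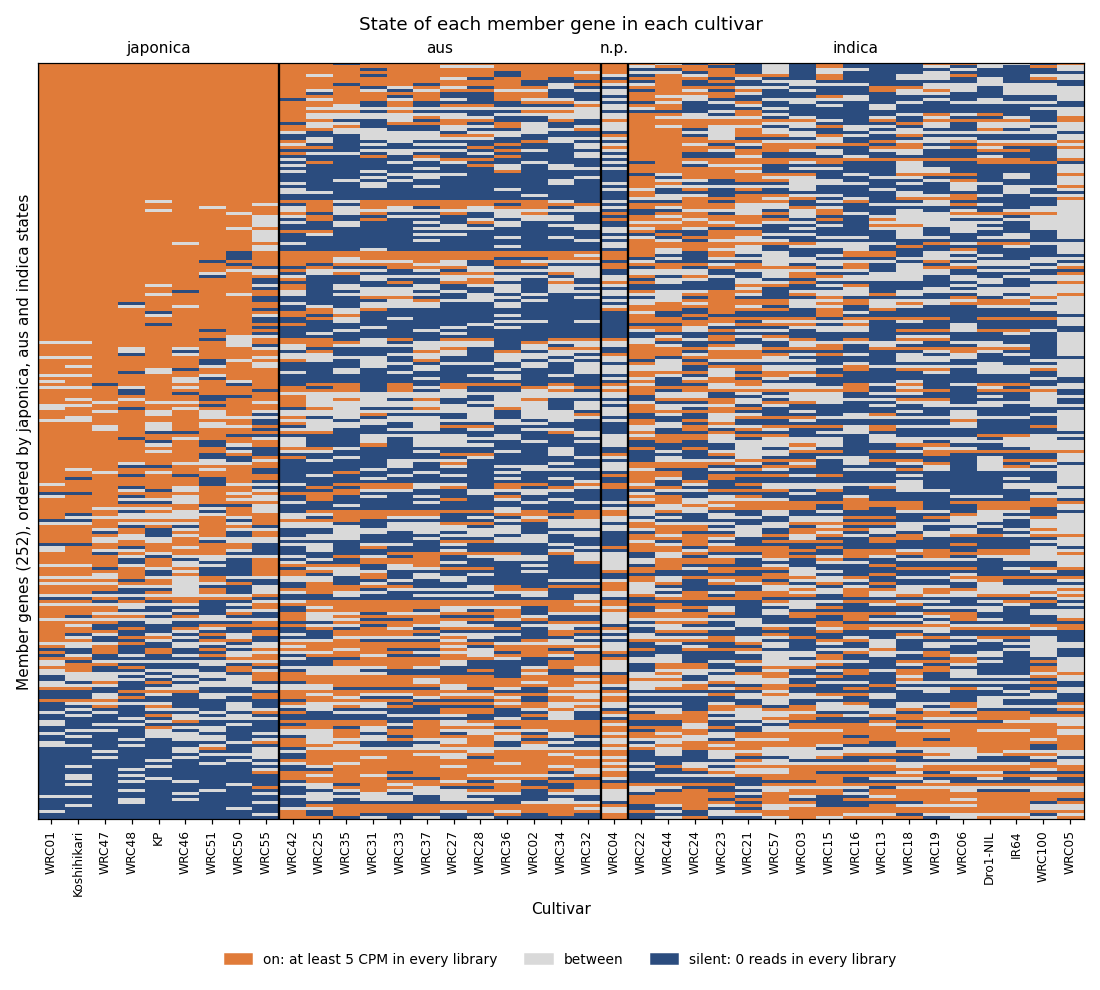
State of each of the 252 members (rows) in each of 39 cultivars (columns): orange, on; blue, silent; grey, between. Cultivars are grouped as japonica, aus and indica, and n.p. marks WRC04, not placed. The japonica columns hold the most orange (59.5% of their cells), and both colours occur in every column.

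Depth sets how far 0 reads can be read as silence. Within 1 cultivar, 3 reads over all its libraries, the upper limit that a count of 0 allows, corresponded to 0.0218 to 0.0641 CPM. Pooled over all cultivars where a member was silent, that limit lay between 0.00115 and 0.00479 CPM. Set against it, the mean on level was at least 1640-fold higher for the member with the smallest ratio and at least 8129-fold higher for the median member. These limits cover counting error only. The silent cultivars were chosen for 0 reads and those with trace reads were counted as between, so the folds describe the rule. Where members were on, the median coefficient of variation between 3 replicates of a cultivar and treatment was 14.3%. Between the cultivars where a member was on it was 20.3%. The highest on cultivar exceeded the lowest by 2.02-fold in the median member. A cultivar with any library under the CPM minimum was not counted as on, so uneven levels were partly left out by the rule. No value for other genes at like levels is set beside these, and they are not read as a steady on level.

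Japonica cultivars had more members on than the other subgroups. Only genes of the japonica reference could become members, and the share of all genes on in each cultivar was not counted. The excess is therefore not read as a trait of japonica. Per cultivar, 49.6 to 69.8% of the members were on in japonica (median 57.5%), 20.6 to 34.1% in aus (median 27%) and 17.1 to 44.4% in indica (median 23.8%). Silent members made up 16.7 to 27.8% in japonica, 38.1 to 50% in aus and 21.4 to 54.4% in indica. Even the lowest japonica cultivar, WRC55, had more members on than the highest aus cultivar, WRC42, and the highest indica cultivar, WRC22. WRC04, the cultivar not placed, had 61 members on and 84 silent, inside the aus range for members on and below it for silent members.

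**Figure D2:**
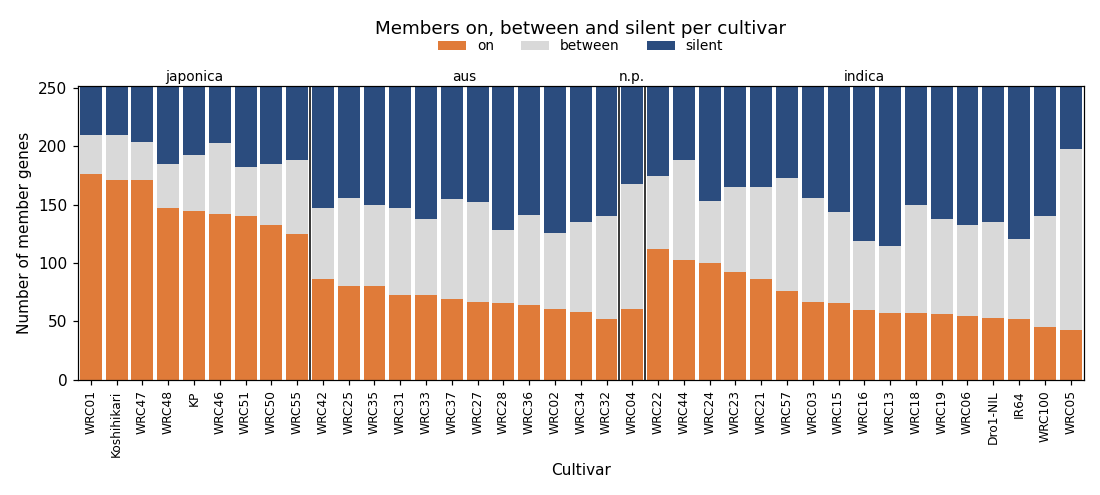
Number of members on (orange), between (grey) and silent (blue) in each cultivar, 252 in all per bar, by subgroup (n.p., WRC04, not placed). The lowest japonica bar, WRC55 with 49.6% of the members on, stands above the highest indica bar, WRC22 with 44.4%.

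WRC01, whose genome served as the reference, had 176 members on, the highest count, and yet was silent for 42. These 42 genes are in the reference assembly, as is every member, and that assembly is the genome of WRC01 itself. An absent gene and a too different sequence are readings given above for the other cultivars. Why the 42 gave 0 reads in WRC01 was not tested. Koshihikari, a modern Japanese cultivar closely related to it, was silent for 29 of the 42 and on for none. Another japonica cultivar was on for 17 of the 42, and no japonica cultivar was on for the remaining 25.

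When a subgroup was called on or silent if at least 80% of its cultivars were so, japonica was on for 85 members and silent for 7. Aus was on for 15 and silent for 23, and indica was on for 8 and silent for 9. The commonest class held 131 members that were mixed in all 3 subgroups. Next came 63 members on in japonica and mixed in the other subgroups, and 12 on in japonica, silent in aus and mixed in indica. With 0 reads as the limit, a clean split of japonica from both other subgroups was rare, with 2 members on in japonica and silent in aus and indica. These classes depend on counting trace reads: with a mean under 0.5 CPM taken as silent, a setting added after seeing the data, 46% of the members were silent in aus and 36 members were mixed in all subgroups. In that setting 97 members were silent in indica, and 48 instead of 14 were on in japonica and silent in aus. The split from both subgroups is not given for it. Complete uniformity was rarer still outside japonica, although a larger subgroup meets it less easily, with 9 japonica, 12 aus and 17 indica cultivars. There were 46 members on in all 9 japonica cultivars, 2 on in all aus cultivars and 0 on in all indica cultivars, while 1 member (LOC_Os12g37110) was silent in all japonica, 3 in all aus and 0 in all indica.

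Variation inside the subgroups was the rule. Both an on and a silent cultivar occurred within japonica for 130 members, within aus for 162 and within indica for 232, and in all 3 subgroups at once for 70. A larger subgroup more easily holds both states, and these held 9, 12 and 17 cultivars, so the counts do not rank the subgroups. At least 1 on cultivar was found in every subgroup for 134 members, and at least 1 silent cultivar in every subgroup for 145.

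LOC_Os05g36994, of the class mixed in all subgroups, had the highest mean level of the set, 201 ± 32.2 CPM (SD over 11 cultivars). It was on in 7 japonica cultivars and in the indica cultivars WRC22, WRC23, WRC24 and WRC44, with WRC23 the highest at 269 CPM. In aus the highest cultivar mean was 0.259 CPM, so aus lay far below every on cultivar, the lowest of which was KP at 151 CPM. LOC_Os08g24290, also mixed in all 3, was divided differently: 6 japonica and 4 aus cultivars were on, at 49.8 to 233 CPM, and the highest of the indica cultivars reached 0.115 CPM. Both genes show a step of more than 2 orders of magnitude between cultivars of the same subgroup.

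Among members on in japonica and mixed elsewhere, LOC_Os01g08890 was on in 8 of 9 japonica cultivars (highest 145 CPM) and silent in WRC51, and 4 indica cultivars reached 33.9 to 168 CPM. LOC_Os11g27730 was on in 8 japonica cultivars at 70 CPM or more and silent in WRC55. In its case WRC42, an aus cultivar, was the only other one that was on, at a level inside the japonica range, and the indica cultivars lay between 0 and 0.115 CPM. Japonica was thus high with 1 exception in each gene, and the cultivars that joined it differed.

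The class on in japonica, silent in aus and mixed in indica was led by LOC_Os01g71930 and LOC_Os02g29300. LOC_Os01g71930 was on in 8 japonica cultivars (median of the 9, 29.8 CPM) and in 5 indica cultivars at up to 36.6 CPM, whereas 11 of 12 aus cultivars gave 0 reads and the other a mean of 0.0109 CPM. LOC_Os02g29300 was on in 8 japonica cultivars (median 28.2 CPM, highest 52.2 CPM) and in 3 indica cultivars, with 11 aus cultivars silent and the last at 0.00941 CPM. Indica medians were also near 0: 0.00805 CPM for LOC_Os01g71930, with 6 cultivars silent, and 0 CPM for LOC_Os02g29300, with 9 silent. The gap between aus and the on cultivars follows from how the class and the on state were defined, so it is a description.

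LOC_Os12g22810 and LOC_Os08g09520 were silent in aus with a mixed japonica. LOC_Os12g22810 was on in 6 japonica cultivars, at up to 59.9 CPM in WRC01, and in 10 indica cultivars at up to 39.3 CPM, including IR64 and Dro1-NIL. LOC_Os08g09520 had 0 reads in every library of all 12 aus cultivars. Its 9 on cultivars, 7 of them japonica, lay within 17.6 to 21.3 CPM, so here the on level hardly varied.

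The reverse pattern, on in aus, was led by LOC_Os07g01960 and LOC_Os12g30760. LOC_Os07g01960 was on in 11 of 12 aus cultivars (median 33.3 CPM, highest 70 CPM) and silent in WRC36. Outside aus it was on in WRC55 at 74.8 CPM, in 3 indica cultivars and in WRC04, while WRC01 was silent. LOC_Os12g30760 was on in 10 aus cultivars (median 19.7 CPM), in 1 japonica and 2 indica cultivars and in WRC04. A gene of the reference genome could thus be silent in the reference cultivar and high in most aus cultivars.

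Indica was on for LOC_Os08g35305 and LOC_Os12g39710. LOC_Os08g35305 was on in 14 of 17 indica cultivars (median 40.8 CPM, highest 61.4 CPM in WRC13) and in 5 aus cultivars, while 5 japonica cultivars were silent and the other 4 reached no more than 0.0566 CPM. LOC_Os12g39710 was on in 15 indica cultivars at a median of 29.8 CPM and in 6 japonica cultivars, and no aus cultivar exceeded 0.0135 CPM. These 2 genes share an on indica and differ in which other subgroup lay near 0.

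LOC_Os01g73656 and LOC_Os08g27540 were on in both japonica and aus. LOC_Os08g27540 was on in all 9 japonica cultivars within 11.4 to 15.8 CPM and in 11 aus cultivars, with WRC35 silent. The indica cultivars WRC06 and WRC05 stood far above, at 147 and 85.8 CPM, and the next highest on cultivar, WRC19, was at 17.8 CPM. LOC_Os01g73656 was on in 25 cultivars and showed 2 levels: 23 of them lay between 24.8 and 31.5 CPM (median 28.2 CPM), whereas WRC35 had 12.3 ± 1.58 CPM (SD, n = 5) and WRC37 10.0 ± 2.09 CPM (SD, n = 6). No library of these 2 aus cultivars exceeded 13.8 CPM and no library of the other on cultivars fell below 20.9 CPM, so the levels did not overlap.

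Indica was silent, with japonica and aus mixed, for LOC_Os06g07810 and LOC_Os05g46920. LOC_Os06g07810 was on in 7 aus cultivars and WRC15 at 20.1 to 27.1 CPM and silent in 15 indica and 7 japonica cultivars. LOC_Os05g46920 was on in 7 aus cultivars, in WRC04 and in WRC01, Koshihikari and WRC47, with WRC01 highest at 17.5 CPM, and its indica cultivars reached at most 0.0614 CPM.

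Japonica was silent for LOC_Os03g39700 and LOC_Os12g13790. LOC_Os03g39700 was silent in 8 japonica cultivars and on in WRC55 at 21.7 CPM, in 9 aus cultivars (highest 31.1 CPM, WRC28) and in 2 indica cultivars. LOC_Os12g13790 was on in 9 aus and 10 indica cultivars at 8.96 to 19.1 CPM, and no japonica cultivar exceeded 0.0126 CPM. WRC21, WRC22, WRC23 and WRC44 were the indica cultivars in which it was silent.

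The indica cultivars with the most members on were also on for most of the members that every japonica cultivar had on. The second count is part of the first, so this likeness is partly built in. Of the 46 members on in every japonica cultivar, WRC22 was on for 32, WRC44 for 30, WRC21 for 22 and WRC23 and WRC24 for 19 each. The other 12 indica cultivars were on for 2 to 11. Over aus cultivars the count was 8 to 24. WRC42 was highest, an aus cultivar whose median correlation over the 9523 genes was higher with japonica than with aus. All 46 were on in at least 1 indica cultivar, whereas 12 were on in no aus cultivar. Indica had more cultivars that could be on (17 against 12), which favours it in this count and the like count below. In the other direction, 33 members were on in no japonica cultivar. All 33 were on in some indica cultivar and 28 in some aus cultivar too, and single cultivars were on for 10 to 20 of them in aus and 5 to 20 in indica. WRC22 and WRC44 are the cultivars whose levels of the 9523 genes on in all 39 cultivars were nearest to a japonica cultivar, with r of 0.311 and 0.357 to WRC51, a description over genes that share libraries and depth.

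Pairs of cultivars were compared by the share of members in opposite states, on in one and silent in the other, among members clear in both. Within japonica the median pair was opposite for 19.6% of members (36 pairs, range 2.54 to 35.7%), within aus for 28.1% (66 pairs, 8.03 to 43.6%) and within indica for 34.8% (136 pairs, 2.17 to 65%). Between subgroups the medians were 48.5% for aus with indica, 63.8% for indica with japonica and 66% for aus with japonica. WRC04 differed least from aus, at a median of 26%, against 43.9% from indica and 66.7% from japonica. The ranges of pairs within and between subgroups overlapped, and the indica pairs spread most.

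Both sets of close relatives lay at the low end. IR64 and Dro1-NIL were opposite for 3 of 138 members clear in both, beside 4 of 12928 genes (0.0309%) over all genes on in at least 1 of the lines, so members hold 3 of the 4. Since members were chosen for variation among cultivars, nothing is read from that share. All 3 were silent in IR64 and on in Dro1-NIL. LOC_Os09g26530 had 17, 14.8 and 19.1 CPM in the control libraries of Dro1-NIL and 14.3 and 14.5 CPM under drought, against 0 reads in 6 libraries of IR64. LOC_Os09g26554, 3 identifiers further, had 9.81 ± 1.07 CPM (SD, n = 5) in Dro1-NIL and 0 in IR64. In the donor KP the first was at 8.87 ± 0.361 CPM and the second at 12.9 ± 1.06 CPM (SD, n = 6 each), so both were on there. LOC_Os03g20140, on chromosome 3, had 29.4 ± 5.58 CPM in Dro1-NIL (n = 5) and 27.7 ± 3.58 CPM in KP (n = 6), again with 0 reads in IR64. The differences from the limit of 3 reads in IR64 were at least 480-fold, 296-fold and 888-fold. The genes were picked for 0 reads in IR64, so these folds are a description.

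WRC01 and Koshihikari were opposite for 5 of 197 clear members, beside 21 of 13376 genes (0.157%) in all, and in all 5 WRC01 was the one that was on. LOC_Os11g40410 had 24.7 to 45.3 CPM in the 6 libraries of WRC01, with a mean of 33.6 ± 8.07 CPM (SD), and 0 reads in all 6 of Koshihikari. LOC_Os03g60419 had 11.5 to 18 CPM in WRC01, and the mean of 13.3 ± 2.43 CPM was close to the 12.9 ± 3.34 CPM of KP. LOC_Os11g47410 had 10.5 ± 3.25 CPM in WRC01 and 4.36 ± 0.535 CPM in KP. LOC_Os01g33710 had 9.51 ± 3.55 CPM in WRC01 and 0 reads in KP, and the fifth, LOC_Os01g06900, had 7.72 ± 1.94 CPM (SD, n = 6 for each). Not one of the 5 gave a read in Koshihikari.

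Members lay on all chromosomes and made up different shares of the expressed genes. On chromosome 12 they were 36 of 782 genes on in 8 or more cultivars (4.6%), on chromosome 11 they were 3.62% and on chromosome 8 they were 3.05%. The lowest share was on chromosome 3, with 19 of 1975 (0.962%). Some members were neighbours. With a distance of at most 10 identifiers, 56 members (22.2%) fell into 23 runs. Of the 33 neighbour pairs in these runs, 23 had no cultivar in which one was on and the other silent. The pairs were clear in both in 12 to 33 cultivars, with no minimum set. How often other expressed genes lie this close was not counted, so nothing is read from the number of runs. Neighbours in identifier order were taken as the table lists them, and reads shared between similar neighbouring genes cannot be traced in a count table.

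The longest run was on chromosome 11 and held LOC_Os11g34770, LOC_Os11g34790, LOC_Os11g34810, LOC_Os11g34820 and LOC_Os11g34880. The first 4 were on together in 12 cultivars and all not on in 26, where the highest mean of any of them was 0.07 CPM. The 12 comprised Koshihikari, WRC47 and WRC55 of japonica, 6 aus cultivars, and WRC15, WRC24 and WRC44 of indica. In the remaining cultivar, WRC01, LOC_Os11g34770 was called between and the other 3 were on. LOC_Os11g34880 followed another course, with the same state as LOC_Os11g34820 in 72.2% of the cultivars clear in both. Levels in the block were not uniform. LOC_Os11g34790 lay between 46 and 81.6 CPM in 11 of its 13 on cultivars (median 78.1 CPM), but at 9.58 ± 4.27 CPM in WRC24 and 7.83 ± 0.726 CPM in WRC44 (SD, n = 6 each). For LOC_Os11g34810, the next member, WRC24 was the highest on cultivar with 31.6 CPM and WRC44 the lowest with 22.3 CPM. The low LOC_Os11g34790 of these indica cultivars was thus not matched by a like drop in LOC_Os11g34810. LOC_Os11g34820, with an on mean of 44.4 CPM, was lower in both, at 26.2 to 38.7 CPM in WRC24 libraries and 17.7 to 33.8 CPM in WRC44 libraries. LOC_Os11g34770, with an on mean of 13.4 CPM, had 6.41 to 17.8 CPM in WRC24 and 7.8 to 13.5 CPM in WRC44.

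One run on chromosome 2 had opposite states. LOC_Os02g57860 was on in 23 cultivars, and LOC_Os02g57910, 5 identifiers away, in the other 16. No cultivar was on for both and none for neither. LOC_Os02g57924, the next identifier after LOC_Os02g57910, was on in the same 16 cultivars. Where LOC_Os02g57910 was on, LOC_Os02g57860 reached at most 0.0392 CPM, and where LOC_Os02g57860 was on, the other genes reached at most 0.0454 and 0.0287 CPM. All 9 japonica cultivars were on for LOC_Os02g57910 (9.51 to 12.2 CPM) and LOC_Os02g57924 (12.4 to 16.5 CPM). Aus was divided into 6 and 6. In indica, 16 of 17 cultivars were on for LOC_Os02g57860, at a median of 30.2 CPM, and WRC21 was the exception: its 6 libraries held 0 reads of LOC_Os02g57860, 8.63 to 11.1 CPM of LOC_Os02g57910 and 10.5 to 16 CPM of LOC_Os02g57924. Over 12942 pairs of members with at least 22 cultivars clear in both, 10 pairs were opposite throughout, and 2 of these 10 were on a single chromosome. The pair LOC_Os02g57860 and LOC_Os02g57910 is itself among those 2. By contrast 42 pairs were never opposite, 25 on a shared chromosome and 17 on different chromosomes, although pairs on a shared chromosome made up 1197 of the 12942. This run was singled out after its values were seen.

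**Figure D3:**
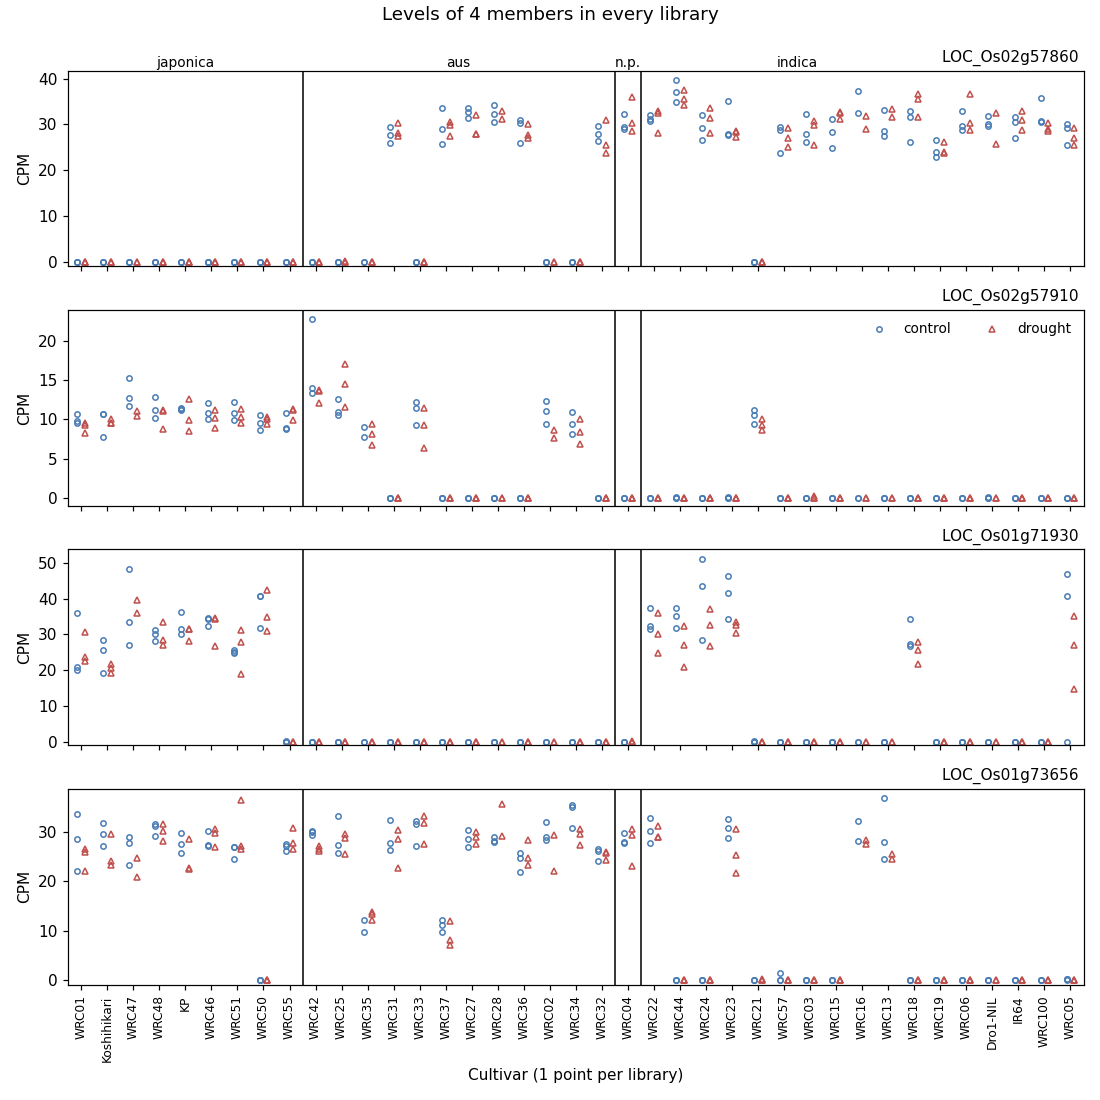
Level in CPM (linear axes) of LOC_Os02g57860, LOC_Os02g57910, LOC_Os01g71930 and LOC_Os01g73656 in every library used: blue circles, control; red triangles, drought; cultivars by subgroup, with n.p. for WRC04, not placed. LOC_Os02g57860 and LOC_Os02g57910 replace each other in every cultivar, and LOC_Os01g73656 has a second, lower level in WRC35 (12.3 CPM) and WRC37 (10.0 CPM).

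Not every member had a single on level. LOC_Os06g49930 varied most, by 29.4-fold between its lowest on cultivar, Koshihikari at 9.73 CPM, and its highest, WRC02 at 286 CPM. Its aus cultivars were high, with 9 of 12 on and a median over all 12 of 160 CPM, against at most 52.4 CPM in japonica and 36.9 CPM in its single on indica cultivar. The gene thus combined a silent state, in 12 cultivars, with a graded on state.

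WRC05, an indica cultivar, had the fewest members on (43) and the fewest silent among indica (54), with 155 between. For 38 of these 155 members, at least 1 of its 6 libraries held 5 CPM or more while another held 0 reads. In each of the other 38 cultivars this number was 0. Over all genes at 5 CPM in some WRC05 library, 206 of 15146 (1.36%) were so divided, against a median of 22.5 genes per other cultivar and 201 in the next highest, WRC02, none of them a member. The divisions did not follow the treatment. Control replicate 1 and drought replicate 1 were opposite for 5 of 30 of these members clear in both, while control replicate 3 and drought replicate 1 were opposite for 23 of 31. These libraries held 12.1 to 19.8 M reads, apart from drought replicate 3 with 2.61 M.

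The divided members of WRC05 fell on 10 chromosomes and several moved as blocks. LOC_Os02g29300, LOC_Os02g29610 and LOC_Os02g29620 all had 0 reads in control replicate 1 and in drought replicates 1 and 2, and 9.86 to 50.1 CPM in the other 3 libraries. LOC_Os11g11550 had 67.5 CPM in control replicate 3 and 48.4 CPM in drought replicate 2, with 0.172 CPM in control replicate 2 and 0 reads in the remaining libraries, and LOC_Os11g11580 was high in the same pair at 28.3 and 26.9 CPM. LOC_Os01g71930 went the other way in number, with 0 reads in control replicate 1 and 14.8 to 46.8 CPM in the other 5 libraries. WRC06, another indica cultivar, was on for 16 of the 38, silent for 13 and between for 9. Whether the libraries of WRC05 came from plants that differed was not tested.

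**Figure D4:**
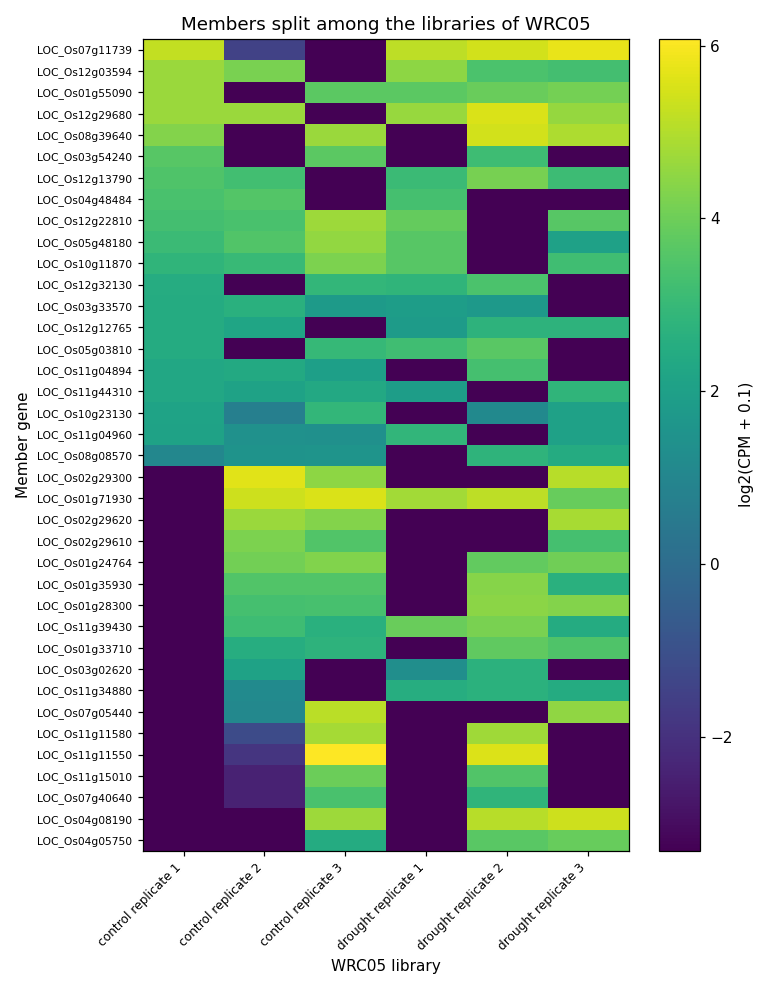
Levels, as log2(CPM + 0.1), of the 38 members that held 5 CPM or more in one WRC05 library and 0 reads in another; the darkest cells are 0 reads. The dark cells form blocks shared by several genes, and control replicate 1 and drought replicate 1, which were opposite for 5 of 30 members, resemble each other more than either resembles control replicate 3.

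The states could also be read in libraries the rule had not used. WRC28 drought replicate 3, with 386011 reads, held at least 1 read of all 66 members that were on in the other WRC28 libraries and none of 124 silent ones. WRC13 drought replicate 1 held reads of 57 of 57 on members and 3 reads in all on 137 silent ones, and WRC02 drought replicate 2 held reads of 58 of 61 and none of 126. The fourth library, WRC47 drought replicate 3, had 362 reads and says nothing. The 3 midway libraries were left out because they stood midway in these same data, so their levels describe that choice and are no separate reading. In them, members that were on in the labelled cultivar and silent in a second one stood at a median of 44.7 to 52% of their on level. Members with the opposite states stood at 55.3 to 56.1%. The second cultivar was WRC15 for WRC16 and WRC36 for WRC35.

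WRC09, an indica cultivar not used in the choice, gave a different set of on members under each treatment. In its 3 control libraries 62 members were on and 137 silent, and in its 3 drought libraries 72 were on and 125 silent. Opposite states occurred for 27 members, which is 30.3% of the 89 members on in a treatment, beside 110 of 13811 genes (0.796%) over all genes, a share from which nothing is read because members were chosen for variation among cultivars. Of the 27, 10 were on in control only and 17 in drought only. LOC_Os07g11739 had 38.4 ± 3.23 CPM (SD, n = 3) in control and 0 reads in 3 drought libraries, whereas LOC_Os12g08030 had 0 reads in control and 47.2 ± 0.459 CPM (n = 3) under drought. The neighbours on chromosome 2 took part: LOC_Os02g57910 and LOC_Os02g57924 had 11.2 ± 0.556 and 13.8 ± 1.05 CPM in control and 0 reads under drought. LOC_Os02g57860 was on in both, at 27.7 ± 2.13 and 28.1 ± 2.48 CPM (SD, n = 3 each). In none of the 39 cultivars of the rule were all 3 genes on. By opposite states the nearest cultivar was WRC18 for the control libraries (19.3%) and WRC03 for the drought libraries (17.5%). A difference between the plants of the WRC09 groups cannot be told apart from the treatment.

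For the 39 cultivars the rule itself asks for the same state in both treatments, so the choice was repeated on each treatment alone. Members chosen on control libraries alone numbered 369, and of their 5221 on states 94% were on under drought and 0 were silent. Of their 5663 silent states 79.9% were silent under drought and 0 were on, with the highest drought mean at 0.723 CPM. Chosen on drought libraries alone, 374 members kept 94.7% of the on states and 78.7% of the silent ones in control, again with 0 opposite. Which treatment was used to choose the members thus changed their number, and it turned no state into the opposite one.

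The rule did not compare drought with control, but it asked for the same state in the libraries of both treatments, so genes that drought moves strongly could be left out by the choice. The counts of members below are therefore a description, and nothing is read from their distance to those of all genes. Across 28175 genes tested with cultivar as a term (edgeR's quasi-likelihood test, Benjamini-Hochberg adjusted p under 0.05), 402 genes (1.43%) also changed at least 2-fold. Among the 252 members, all of which passed the filter on low counts, this number was 0. At any fold, 60 members (23.8%) passed the adjusted threshold, beside 45.6% of all genes, and 83 had an unadjusted p under 0.05. DESeq2 on counts summed per cultivar and treatment called 62 at any fold and 0 at 2-fold. Of the 60, 18 were higher and 42 lower under drought. Of the 12841 called among all tested genes, 6628 (23.5% of all tested) were higher and 6213 (22.1%) lower. Log2 fold changes of members ranged from -0.79 to 0.45, with a median of -0.06 against 0.00 for all genes, and 67.9% were below 0 against 49%. Members carry reads in only part of the cultivars, which leaves fewer counts per gene for the test.

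**Figure D5:**
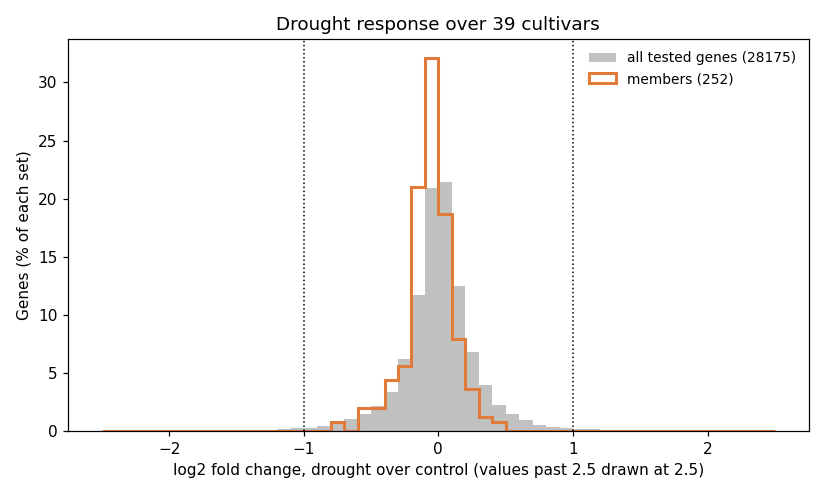
Distribution of log2 fold changes, drought over control, for all 28175 tested genes (grey) and the 252 members (orange outline), as % of each set; dotted lines mark a 2-fold change. No member passes a dotted line, and the members' peak lies just below 0.

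The member that fell most was LOC_Os10g18480, with a log2 fold change of -0.79 ± 0.11 (SE; adjusted p = 9e-10, edgeR). Over its 15 on cultivars the level was 47.1 ± 26.2 CPM in control (median 46.8) and 34.4 ± 24.6 CPM under drought (median 31.6; SD over cultivars), and it was lower under drought in 13 of 15. LOC_Os11g39190 fell by 0.73 on the log2 scale (SE 0.11; adjusted p = 6.9e-09, edgeR). It went from 66.3 ± 13.2 to 40.1 ± 11.1 CPM (SD over 12 on cultivars) and was lower in 11 of 12. For both genes the ranges of control and drought overlapped between cultivars.

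Of the members that rose, LOC_Os06g02930 had a log2 fold change of 0.45 ± 0.08 (SE; adjusted p = 4.6e-07, edgeR), from 9.16 ± 2.6 to 11.4 ± 3.19 CPM (SD over 9 on cultivars), and was higher under drought in 8 of 9. LOC_Os07g19130 had 0.45 ± 0.1 (SE; adjusted p = 6e-05, edgeR) and was higher in 7 of 9 on cultivars, with medians of 8.36 CPM in control and 10.8 CPM under drought. With DESeq2 on summed counts its log2 fold change was 0.04 and its adjusted p was 1, so this call depends on the tool.

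At the edge of the rule, 49 members had exactly 8 cultivars on at least 1 side, and 64 genes missed by 1 cultivar. Just inside lay LOC_Os01g62100, with 8 cultivars on and 8 silent, and LOC_Os03g46884, with 8 on and 9 silent. Just outside lay LOC_Os09g13470, with 29 on and 7 silent and a highest cultivar mean of 47.8 CPM, and LOC_Os01g21130, with 7 on and 28 silent and a highest mean of 17 CPM.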

How the data were processed

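Whole-number read counts per gene were deposited by the authors as 1 table; per the submitters' processing notes they come from STAR and featureCounts 2.0.0 on the genome build IRGSP-1.0. The annotation release, strand setting, treatment of multiply aligned reads and filters are not given in the sources used here. All columns matched a label (0 unmatched) and 0 pairs of columns were identical. CPM was computed here from library sizes scaled by TMM factors of 0.818 to 1.36 (edgeR 4.0.16, R 4.3.3). Silent, on and subgroup counts were made with Python 3.11.15 and pandas 2.3.3. The drought model (glmQLFit, glmQLFTest; filterByExpr, minimum count 10) had cultivar and treatment as terms and was tested on simulated data; DESeq2 1.42.0 was an alternative. Alternatives changed the CPM and read limits, the number of cultivars, the scaling, the subgroup share, the replicates and the libraries left out.

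Members and lists were chosen with earlier results of these data known. Named are the 2 members with the highest on level in each subgroup class of 5 or more members, the 2 largest significant rises and falls under drought, members that differ between IR64 and Dro1-NIL or WRC01 and Koshihikari, the longest run and members at the rule's edge. Members named outside this rule (the run on chromosome 2, LOC_Os06g49930, LOC_Os12g37110 and the examples in WRC05 and WRC09) were chosen after their values were seen.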

Additional observations from a re-analysis of the deposited data

Results flagged for a closer look

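WRC09 entered none of the comparisons over 39 cultivars, and its libraries nevertheless held members that differed fully between the treatments. In control only, 10 members were on in all 3 libraries and had 0 reads in all 3 drought libraries. Another 17 members were on in all 3 drought libraries and had 0 reads in all 3 control libraries. In the 39 cultivars used, 0 states of members chosen on the libraries of one treatment alone turned into the opposite one in the other treatment. Of the 17, LOC_Os12g39710 had 30.0 ± 4.33 CPM (SD, n = 3) under drought, and of the 10, LOC_Os09g20024 had 57 ± 2.76 CPM (SD, n = 3) in control. The cause was not tested.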

How the results depend on the processing

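The number of members depended on the limits of the rule: 430 with a minimum of 2 CPM, 160 with 10 CPM, 388 with at most 1 read as silent, 396 with 6 cultivars on each side and 152 with 10, against 252. Without 1 replicate in turn it was 312 to 334. Of these 252 members, 18.3% instead of 33.7% were on in japonica when all cultivars had to be on. The share silent in aus was 9.13% and became 1.19% with all cultivars, 17.1% with a share of 67%, 27.8% with at most 1 read and, added after seeing the data, 46% with a mean under 0.5 CPM as silent. The share mixed in all 3 subgroups was 52% and became 79.8%, 31%, 34.5% and 14.3% in the same order. By construction looser limits admit more genes. For drought, the count of members was 60 at any fold and 0 at 2-fold; without 1 replicate in turn it was 44 to 51 at any fold and 0 at 2-fold. The replicate block gave 63 members at any fold and 0 at 2-fold; same-numbered libraries correlated at a median of 0.101 (-0.776 to 0.546 over 96 pairs), so the numbers do not pair the samples. Of 36 alternatives for the 4 members named for drought, 35 kept the direction and the call, and 1 lost the call (LOC_Os07g19130, DESeq2: 0.04, adjusted p of 1). Depth limits silence to the 3-read limits given, and a gene absent from IRGSP-1.0 is not seen.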
